A study of Homo sapiens with 3 samples.

Results

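The 31 genes described here encode the constitutive subunits of the 26S proteasome, taken by name as PSMA1 to PSMA7, PSMB1 to PSMB7, PSMC1 to PSMC6 and 11 PSMD genes. Their deposited transcripts were matched by Ensembl identifier and summed per gene, which gave values for 30 of the 31 among 52992 genes in all; PSMB3 was not analysed here, since none of the 6 transcripts listed for it in GENCODE 29 was matched. RNA had been sequenced from TE5, a cell line of human esophageal squamous cell carcinoma, 48 h after transfection with a scrambled control (the group scramble, 1 library) or with short hairpin RNA against KLF5 (the group shKLF5, 2 libraries). KLF5, a transcription factor of the zinc finger class, is known for its role in epithelial growth, and the comparison asks how these transcripts stood after its knockdown. The labels number the shKLF5 libraries 1 and 2 without saying whether these are separate hairpins or separate cultures, so p-values measure only the spread between 2 libraries, which may be technical. All groups share the same line and the same harvest time.

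The 26S proteasome degrades proteins that carry ubiquitin chains. Its barrel, the 20S core, stacks outer rings of alpha subunits (PSMA), which gate the entry pore, on inner rings of beta subunits (PSMB), of which PSMB5, PSMB6 and PSMB7 hold the active sites. The 19S cap holds a ring of ATPases (PSMC) that unfold the substrate, and PSMD subunits of the base and lid that bind ubiquitin, build the scaffold or, in PSMD14, cut the ubiquitin chain off. NFE2L1, also called NRF1, is the factor known to raise the genes together when the proteasome is impaired, through antioxidant response elements in their promoters.

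Promoters of 4 ATPase and base genes are shown first because these genes mark the ends of the range below: PSMC1 and PSMD1 stood lowest against scramble, and PSMC4 and PSMC5 were the members not below it in both shKLF5 libraries. RefSeq windows (GRCh38.p14) were found for 25 of the 30 genes, 31 windows in all. Each line gives the 250 bases before an annotated start, 5′ to 3′ on the gene's strand. The letters in capitals match GGGCGG or CACCC on either strand, the GC box and CACCC box that SP and KLF factors are known to bind. PSMC1 lies on the plus strand at chr14:90256303-90256552, PSMD1 on the plus strand at chr2:231056617-231056866, PSMC4 on the plus strand at chr19:39970915-39971164 and PSMC5 on the plus strand at chr17:63827181-63827430, the first of its 2 windows.
PSMC1: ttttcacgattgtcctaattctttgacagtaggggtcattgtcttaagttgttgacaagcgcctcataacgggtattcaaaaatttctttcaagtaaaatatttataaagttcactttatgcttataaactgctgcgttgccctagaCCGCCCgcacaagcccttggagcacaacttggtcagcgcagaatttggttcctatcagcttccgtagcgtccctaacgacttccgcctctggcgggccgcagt
PSMD1: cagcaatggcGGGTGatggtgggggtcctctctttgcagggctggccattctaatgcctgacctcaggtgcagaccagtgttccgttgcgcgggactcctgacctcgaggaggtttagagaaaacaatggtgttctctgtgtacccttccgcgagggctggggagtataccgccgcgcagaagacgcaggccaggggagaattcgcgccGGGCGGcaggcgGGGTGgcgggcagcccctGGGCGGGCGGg
PSMC4: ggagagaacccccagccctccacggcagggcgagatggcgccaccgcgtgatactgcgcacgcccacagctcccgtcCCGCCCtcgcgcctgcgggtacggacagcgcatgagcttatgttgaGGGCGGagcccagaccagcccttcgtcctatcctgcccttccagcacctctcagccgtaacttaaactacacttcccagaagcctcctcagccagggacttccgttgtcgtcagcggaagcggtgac
PSMC5: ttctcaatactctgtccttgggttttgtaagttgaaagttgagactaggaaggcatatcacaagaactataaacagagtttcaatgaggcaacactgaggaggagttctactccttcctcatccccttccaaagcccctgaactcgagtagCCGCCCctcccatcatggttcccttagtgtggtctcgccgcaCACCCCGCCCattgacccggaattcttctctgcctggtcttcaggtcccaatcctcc

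The 4 windows differed in both motifs. PSMC1 held 1 GGGCGG match and 0 CACCC matches, PSMD1 held 3 and 2, PSMC4 held 2 and 0, and PSMC5 held 2 and 1, of which a pair overlap. The second PSMC5 window (chr17:63827471-63827720, not printed) held 1 and 3. Over the members' windows GGGCGG was found in 21 of 31 (67.7%), against 42.6% of all 35116 RefSeq windows of the same length. CACCC was found in 19 (61.3%, against 54.7%), TGANNNNGC, a short form of the antioxidant response element, in 15 (48.4%, against 35.2%), and CCAAT, the NF-Y box, in 13 (41.9%, against 32.0%). The median GC content was 60.8% in the members' windows and 58.0% in all windows, which bears on how often GC-rich letters occur. Windows of 1 gene are not independent, and some of them overlap, as in PSMA4 and PSMA6. A match describes letters and not a bound site. The most TGANNNNGC matches stood in PSMA5 with 4 and PSMB4 with 3.

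Depth was similar in the 3 libraries, with 32720563 to 33544752 estimated counts each, and the sum over the 30 genes was 100811 for scramble, 103517 for shKLF5 library 1 and 84011 for library 2. Counts encoded in mitochondria took 38.1% of scramble, 31.1% of library 1 and 34.7% of library 2. At this similar depth, genes with at least 10 counts numbered 16920 in scramble against 19304 and 19422 in shKLF5 libraries 1 and 2. The lone control thus held fewer detected genes, and how this bears on the values below was not tested. KLF5, the target of the hairpins, had 8402 counts in scramble against 1333 and 1531 (log2 fold change -2.96, SE 0.34), with an adjusted p of 0.18 by edgeR's quasi-likelihood test and 1.51e-06 by DESeq2. The squamous markers KRT5, KRT6A, TP63, DSG3, SFN and PERP were each present with at least 2047 counts in every library. All 6 were below scramble in both shKLF5 libraries, as were 36.5% of all genes tested. Fibroblast markers summed to 44.9 to 74.5 CPM (counts scaled to the TMM-adjusted library size), mainly COL1A1, leukocyte markers to 0.752 to 1.28 CPM and endothelial markers to 3.27 to 10.1 CPM, with CDH5 at 0 counts in scramble. Their part in the results below was not tested.

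Each measured subunit had at least 951 counts in every library. In TPM, a scale that divides by transcript length and so allows genes to be compared, the 30 members ran from 20.1 to 392 in scramble, from 18.1 to 433 in shKLF5 library 1 and from 17.1 to 293 in library 2, with medians of 71.8, 82.6 and 70.7. PSMD2, like PSMD1 a large scaffold subunit of the base, stood first in each library and was 2.27-fold above the next member in scramble. It carried 17.7% of all member counts there. These TPM sums include short noncoding transcripts, such as those of PSMD2 with 723 and 676 bases, at 38.8 and 28.6 TPM in scramble. The coding transcript with the most counts had 139.5 TPM in scramble for PSMD2, 132.5 for PSMB7 and 126.9 for PSMA4. On that measure, which leaves out each gene's other coding transcripts, the lead of PSMD2 was smaller. The PSMD2 gene (chromosome 3, 184298709 to 184309054, GRCh38) lies between SOX2 and TP63, which encode factors of the squamous lineage. PSMD14, the deubiquitinase of the lid (chromosome 2, 161308038 to 161411717), stood last in each, at 20.1, 18.1 and 17.1 TPM. The other 28 lay between 32.8 TPM (PSMD12) and 173 TPM (PSMA4) in scramble.

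**Figure D1:**
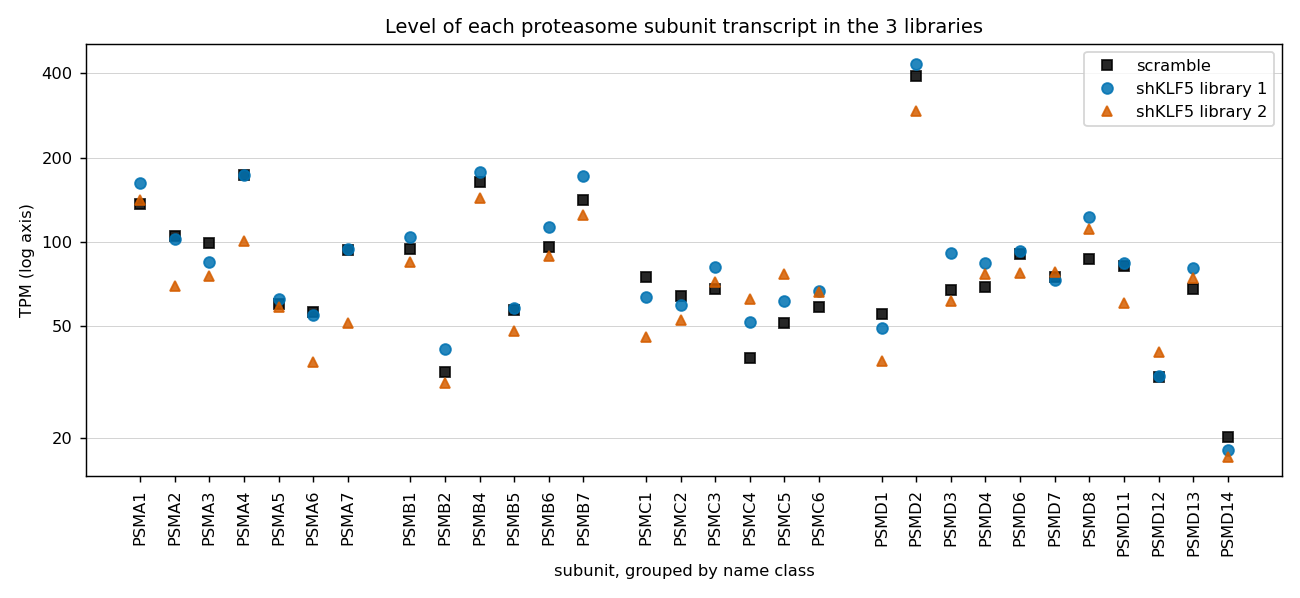
Level of each of the 30 measured subunits in TPM (log axis) in scramble (black squares), shKLF5 library 1 (blue circles) and shKLF5 library 2 (orange triangles), 1 point per library and no error bar. PSMD2 is highest and PSMD14 lowest in all 3 libraries. The orange points of several subunits, among them PSMA2, PSMA4, PSMA6, PSMA7, PSMD2 and PSMD11, lie below the other 2.

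The summed levels of the classes differed between the 2 shKLF5 libraries. Summed TPM of the PSMA genes was 722 in scramble, 733 in library 1 and 535 in library 2, and that of the 6 PSMB genes was 586, 665 and 522. The PSMC sum was 355, 384 and 376, and the PSMD sum 1038, 1163 and 928. On the TPM scale library 1 lay above scramble for each class, and library 2 lay below it for all but the ATPases. TPM is not corrected for the makeup of the library, and the typical tested gene also had more TPM under shKLF5 (median difference 0.26 on the log2(TPM + 1) scale).

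After TMM scaling, which sets the bulk of genes equal between libraries, 28 of the 30 subunits were below scramble in both shKLF5 libraries, 0 were above in both and 2, PSMC4 and PSMC5, went opposite ways. Of all 20629 genes tested 36.5% were below scramble in both and 37.9% above in both, and of protein-coding genes 41.6% were below. With DESeq2's size factors the count was again 28, against 37.0% of all genes. The median log2 fold change of the subunits was -0.45, with -0.37 in library 1 and -0.51 in library 2, against 0.04 over all genes. No subunit passed edgeR's quasi-likelihood test: adjusted p ran from 0.503 to 0.993, with log2 SE of 0.34 to 0.42, and 0 of all genes passed (0% called; 1894, or 9.18%, had an unadjusted p under 0.05). The unadjusted p was under 0.05 for 2 subunits, PSMC1 and PSMD1, both lower, where 3.5% of all genes were lower at that level. DESeq2 called 116 genes (0.562%) and edgeR's legacy fit 21 (0.102%), and neither called a subunit. In bulk RNA, fewer cells of a type and less RNA per cell cannot be told apart.

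The direction of these values rests on the scaling. With library size alone 12 of the 30 were below scramble in both libraries, against 12.5% of all genes, 7 were above in both, and the subunit median was -0.02. With limma on log2(TPM + 1), which has no such scaling either, 7 were below in both (11.3% of all genes), 9 were above in both and the median was 0.00. The typical gene itself stood at 0.47 with library size alone, so the distance of the subunits from the typical gene stayed at -0.48. When the trend of each library with abundance was removed by loess, 24 of 30 were below scramble in both (38.2% of all genes) and the median was -0.19. Among genes with a mean of at least 5 CPM, where scaling was set anew on abundant genes, 26 were below in both (35.5% of those genes), 2 were above in both and the median was -0.27. The subunits lay below the typical gene by 0.22 to 0.82 on the log2 scale in all 12 fits. A change of size factors shifts all genes nearly alike, so fits that differ only in scaling leave this distance as it was. The distance was -0.22 with the loess correction and -0.29 among genes of at least 5 CPM. It was -0.82 with no filter on low counts, where the typical gene stood at 0.33.

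**Figure D2:**
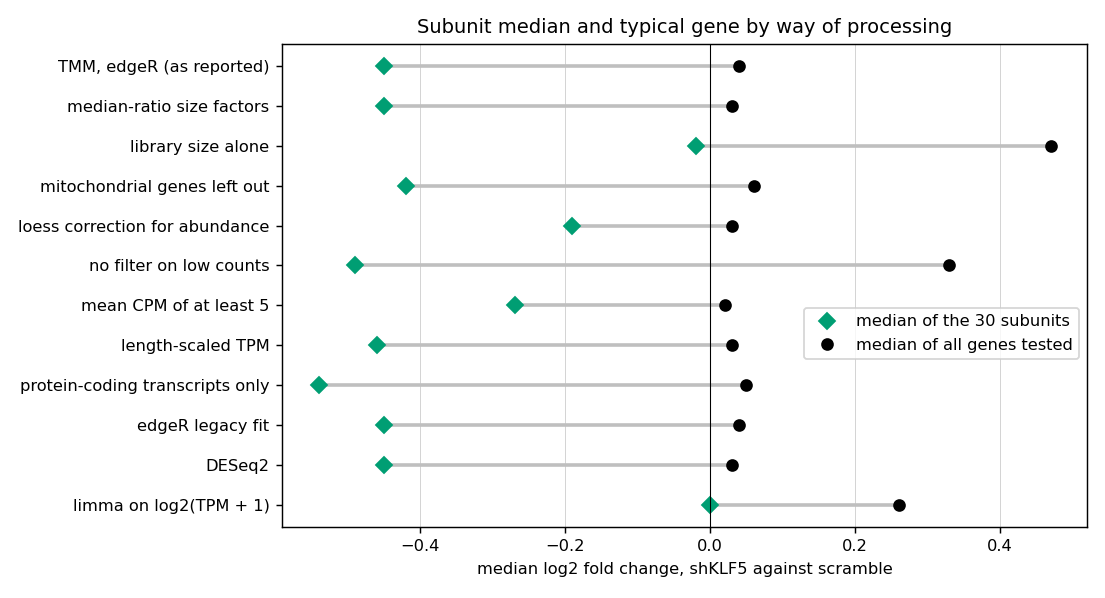
Median log2 fold change of shKLF5 against scramble for the 30 subunits (green diamonds) and for all genes tested (black circles) under each of 12 ways of processing, joined by grey lines. The subunit median lies left of the typical gene in every line, at -0.02 with library size alone and 0.00 with limma on log2(TPM + 1).

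Alpha ring genes showed the lowest class median. The PSMA median was -0.72, against -0.38 for PSMB, -0.37 for PSMC and -0.44 for PSMD; subunits are not replicates, so no test was made between classes. In library 1 the PSMA median was -0.47, against -0.30, -0.37 and -0.41 for PSMB, PSMC and PSMD. In library 2 it was -0.91, against -0.53, -0.36 and -0.47, so the distance between classes rests mainly on library 2. With library size alone, which shifts all classes nearly alike, the joint PSMA median was -0.29. With the loess correction it was -0.50, in both cases the lowest of the 4. PSMA7, which is also known as a binding partner of regulatory proteins, had 2339, 2268 and 1239 counts in scramble and libraries 1 and 2 (88.0, 63.3 and 35.6 CPM). Library 2 thus stood well apart from library 1, at -1.30 against -0.47 on the log2 scale. PSMA4 had 5953, 5820 and 3517 counts, a split of the same kind (-0.46 and -1.15), and PSMA6 had 1502, 1430 and 1041.

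Agreement was closer for PSMA3, whose C terminus is known to bind regulators such as the p21 inhibitor. Its counts were 2301, 1923 and 1766, which is 86.6 CPM for scramble and 52.2 ± 2.03 CPM for shKLF5 (SD, n = 2). The log2 fold change was -0.73, with an SE of 0.34, a 95% interval from -1.53 to 0.07 and an edgeR adjusted p of 0.566. PSMA3-AS1 overlaps PSMA3 on the other strand over 6648 bases and was given 1033, 1106 and 1177 counts. PSMA2 had 2973, 2767 and 2046 counts and stood at -0.72 (SE 0.36, interval -1.55 to 0.11, edgeR adjusted p = 0.582). A readthrough gene on the same strand, AC010132.3, overlaps PSMA2 and was given 978, 1099 and 1296 counts, so the division between both is uncertain. PSMA5 had 1697, 1675 and 1593 counts (-0.46). With all transcripts counted, PSMA1 was the alpha subunit nearest to 0. It had 3159, 3431 and 2954 counts and stood at -0.40 (SE 0.34, interval -1.19 to 0.40, edgeR adjusted p = 0.733). Most of this signal was noncoding: the coding share of PSMA1 was 44.6% for scramble, against 40.3% and 34.1% for the shKLF5 pair. Coding transcripts alone put PSMA1 at -0.61, beside a PSMA median of -0.69 on that measure.

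Beta ring genes formed the tightest class. The 6 measured members lay between -0.49 and -0.36, each below scramble in both libraries and each lower in library 2 than in library 1. PSMB5, the chymotrypsin-like subunit and the main target of bortezomib, had 1684, 1770 and 1423 counts, and its CPM of 63.3 in scramble compares with 45.2 ± 5.99 (SD, n = 2); it stood at -0.49 (SE 0.36, interval -1.32 to 0.35). PSMB6, the caspase-like subunit, had 1998, 2256 and 1869 counts and stood at -0.36 (SE 0.35, interval -1.18 to 0.45). PSMB7, the trypsin-like subunit, had 3472, 4077 and 3080 counts and stood at -0.37 (SE 0.36, interval -1.19 to 0.46). The 3 catalytic subunits were therefore close to each other, and edgeR's adjusted p was 0.69, 0.759 and 0.758 in that order. PSMB6 and PSMB7 turned to 0.06 with library size alone, while PSMB5 did not change sign.

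The noncatalytic beta subunits, which shape the ring, had the same pattern. PSMB4 had 3768, 3948 and 3393 counts and stood at -0.45 (SE 0.34, interval -1.24 to 0.34, edgeR adjusted p = 0.702). PSMB2 had 2707, 3142 and 2475 counts and stood at -0.36 (SE 0.35, interval -1.18 to 0.46, edgeR adjusted p = 0.763). PSMB1 had 2364, 2517 and 2243 counts (-0.40). Over the whole 20S core all 13 measured genes were lower in library 2 than in library 1 after TMM scaling, as were 24 of the 30 subunits and 49.7% of all genes tested.

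The ATPases spread the widest in the joint values, from -0.91 to 0.09, against -0.93 to -0.05 for PSMD. In library 1 the ranges were -0.76 to -0.13 for PSMC and -0.71 to -0.05 for PSMD, so this order rests on library 2. PSMC1, whose C-terminal tail helps to open the core, had 3385, 2698 and 2097 counts, which is 127 CPM for scramble and 67.8 ± 10.6 CPM for shKLF5 (SD, n = 2). It stood at -0.91 (SE 0.35, interval -1.72 to -0.10), with -0.76 in library 1 and -1.08 in library 2, an unadjusted p of 0.0324 and an adjusted p of 0.503 by edgeR's quasi-likelihood test. PSMC2 had 2836, 2463 and 2242 counts and stood at -0.68 (SE 0.34, interval -1.47 to 0.11, edgeR adjusted p = 0.582). PSMC3 with 2458, 2574 and 2473 counts (-0.37) and PSMC6 with 2136, 2230 and 2191 (-0.36) had nearly equal levels in both shKLF5 libraries.

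PSMC4 and PSMC5 stood on the other side in library 2. PSMC4 had 1663, 2054 and 2647 counts (62.6, 57.3 and 76.1 CPM) and stood at 0.09 (SE 0.37, interval -0.77 to 0.96, edgeR adjusted p = 0.949). PSMC5 had 1902, 2206 and 2799 counts, or 71.5, 61.6 and 80.5 CPM, and stood at -0.01 (SE 0.37, interval -0.86 to 0.84, edgeR adjusted p = 0.993). For both genes the scramble value lay between the 2 shKLF5 libraries. In TPM, without TMM scaling, scramble was the lowest of the 3 for both, with 38.6, 51.9 and 62.4 for PSMC4 and 51.1, 61.7 and 76.9 for PSMC5. PSMC5 overlaps FTSJ3 on the other strand over 2861 bases, and FTSJ3 was given 1141, 1737 and 1581 counts; the use of strand is not given in the sources used here.

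**Figure D3:**
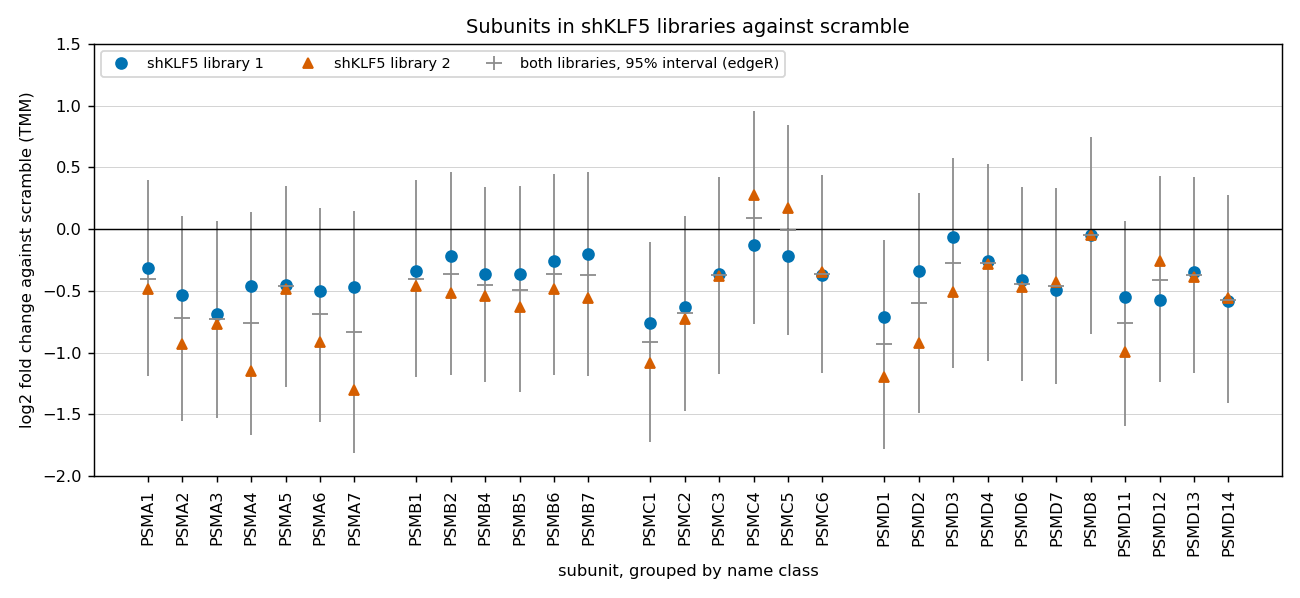
Log2 fold change against scramble after TMM scaling for each subunit in shKLF5 library 1 (blue circles) and library 2 (orange triangles), with the joint edgeR estimate and its 95% interval in grey. Only the intervals of PSMC1 and PSMD1 lie wholly below 0, and PSMC4 and PSMC5 have points on both sides of 0.

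Among the base subunits PSMD1, the scaffold to which the ubiquitin receptor ADRM1 binds, had 5030, 4151 and 2859 counts, which is 189 CPM for scramble and 99.0 ± 23.8 CPM for shKLF5 (SD, n = 2). It had the lowest log2 fold change of all members, -0.93 (SE 0.36, interval -1.78 to -0.09), with -0.71 and -1.20 in the 2 libraries, an unadjusted p of 0.034 and an adjusted p of 0.504 by edgeR's quasi-likelihood test. PSMD2 had 17798, 18903 and 12335 counts, with -0.34 and -0.92 in libraries 1 and 2, so library 2 again lay lower. PSMD4, a receptor for ubiquitin chains, had 2229, 2500 and 2407 counts (-0.27). The other receptor of the cap, ADRM1, and the small subunit SEM1, which were not in the list of 31, had 2266, 2772 and 2023 and 1153, 1455 and 1141 counts, and stood at -0.33 and -0.24 (SE 0.37 for each). ADRM1 had -0.14 in library 1 and -0.55 in library 2, SEM1 -0.09 and -0.40, and both turned positive with library size alone (0.10 and 0.19).

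The 8 lid genes had a median of -0.42 and were each below scramble in both libraries. PSMD11, a lid scaffold subunit known to promote assembly, had 6476, 5949 and 4254 counts and stood at -0.76 (SE 0.36, interval -1.59 to 0.07, edgeR adjusted p = 0.568). PSMD14 had 1070, 964 and 951 counts, or 40.2 CPM against 27.1 ± 0.318 (SD, n = 2), and stood at -0.57 (SE 0.37, interval -1.41 to 0.28, edgeR adjusted p = 0.659), nearly equal in both libraries. PSMD8 was the nearest to 0, with 2590, 3383 and 3267 counts, at -0.05 (SE 0.35, interval -0.85 to 0.75, edgeR adjusted p = 0.971). PSMD8 turned positive with library size alone (0.38), with the loess correction (0.19) and among genes of at least 5 CPM (0.13). The other 5, PSMD3, PSMD6, PSMD7, PSMD12 and PSMD13, lay between -0.46 and -0.27. These values count all transcripts. In PSMD12 and PSMD13 coding transcripts took 52.9% and 37.5% of counts in scramble, and a smaller share in both shKLF5 libraries. Their coding counts were 993, 791 and 872 for PSMD12 and 1038, 760 and 734 for PSMD13.

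A further feature of the subunits, which the choice of genes did not use, was how their counts divided among transcripts. Coding transcripts took 86.2% of the members' counts in scramble (95% Wilson interval 86.0 to 86.5), 84.8% in library 1 (84.6 to 85) and 80.0% in library 2 (79.7 to 80.2). Transcripts annotated as retaining an intron took 8.49% (8.31 to 8.66), 9.76% (9.58 to 9.94) and 12.7% (12.4 to 12.9). Over all other protein-coding nuclear genes the retained intron share was 6.36%, 6.59% and 8.23%, and the coding share 87.5%, 87.0% and 84.1%. The intervals cover counting error only and not the error of dividing reads among overlapping transcripts. Of the 29 subunits that have a noncoding transcript, the coding share was lower than in scramble in both shKLF5 libraries for 24, and higher in both for 0; PSMA2, PSMA5, PSMB5, PSMD2 and PSMD14 went opposite ways. Among 5938 protein-coding genes with such a transcript and at least 500 counts in each library, 51.4% were lower in both. The median change was -0.787 and -4.29 percentage points in libraries 1 and 2 for the subunits, and -0.217 and -1.20 for all these genes. With 1 scramble library these shares carry no test.

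In library 2 the widest shifts were those of PSMD6 and PSMD7. The lid gene PSMD6 had a coding share of 83.8% in scramble (82.6 to 85), 80.0% in library 1 (78.7 to 81.3) and 68.4% in library 2 (66.8 to 70.0). Its retained intron transcript of 2052 bases had 205, 282 and 424 counts, while its main coding transcript, of 1430 bases, had 2507, 2571 and 1870. PSMD7, whose protein pairs with PSMD14 in the lid, went from 86.7% (85.5 to 87.9) and 86.5% (85.2 to 87.7) to 72.6% in library 2 (71.0 to 74.2), where a transcript of 1395 bases annotated for nonsense-mediated decay had 646 counts against 328 in scramble and 299 in library 1. In both of these genes library 2 stood apart. Genes on the other strand overlap them: PSMD6-AS2 over PSMD6 had 33, 72 and 175 counts, and AC009120.2 over PSMD7 had 103, 143 and 185. As the use of strand is not given, the division of reads in these genes is uncertain.

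In PSMC4 and PSMD13 both shKLF5 libraries stood together below scramble. PSMC4 had a coding share of 88.5% in scramble (86.8 to 89.9) against 78.1% (76.3 to 79.8) and 79.7% (78.1 to 81.2). A retained intron transcript of 1532 bases had 108, 250 and 287 counts, and another of 1623 bases had 83, 191 and 237. With coding transcripts alone, PSMC4 stood at -0.02 in place of 0.09. PSMD13, a lid subunit, had 37.5% (35.7 to 39.3), 26.0% (24.5 to 27.6) and 26.5% (24.9 to 28.2). Its coding transcript with the most counts, of 1991 bases, had 977 in scramble against 582 and 477. Other coding transcripts went the other way, with 7, 88 and 170 counts for that of 1427 bases and 34, 59 and 84 for that of 1591 bases. Transcripts of 1489 and 1632 bases annotated for nonsense-mediated decay had 770, 906 and 854 and 433, 620 and 511 counts. The gene total was 2771, 2921 and 2771, and the division of reads among these transcripts is uncertain.

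PSMD14 had a coding share of 97.5%, 97.6% and 97.3%. The catalytic subunits lay close to it, with 98.9%, 99.4% and 98.2% for PSMB5, 97.7%, 96.9% and 97.0% for PSMB6 and 99.4%, 99.2% and 98.2% for PSMB7. PSMA2 differed most between the shKLF5 libraries, with 91.5% in scramble, 98.4% in library 1 and 80.8% in library 2. Coding transcripts alone gave a subunit median of -0.54, against -0.45 with all transcripts, and 28 of 30 were again below scramble in both libraries.

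**Figure D4:**
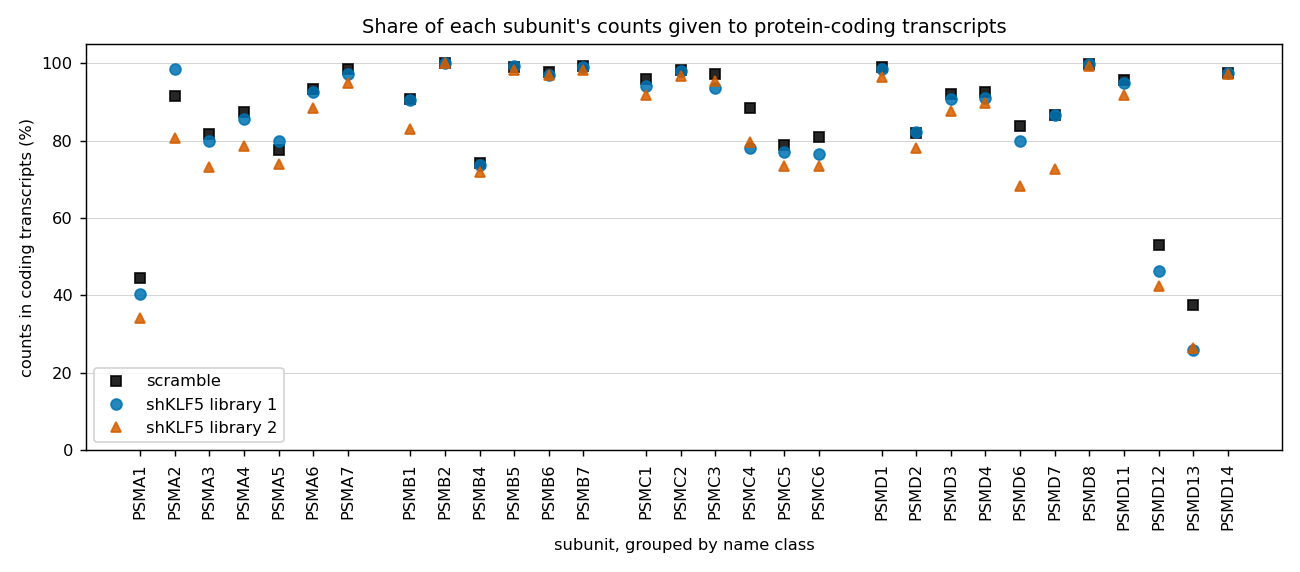
Share of each subunit's estimated counts given to transcripts annotated as protein coding, in percent, in scramble (black squares) and shKLF5 libraries 1 (blue circles) and 2 (orange triangles), 1 point per library. The squares of PSMD6, PSMD12, PSMD13 and PSMC4 lie above both coloured points, and PSMB2, with a single transcript, is at 100% throughout.

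The tables listed 26 pseudogenes named after 9 of the members, of which 0 had 10 or more counts in any library and 0 exceeded 1% of the parent gene. PSMC1P9 had the most in scramble, with 8 counts beside 3385 of PSMC1.

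The genes around the proteasome were taken from lists by function, and none of them passed edgeR's test over all genes. All 9 assembly chaperone genes were below scramble in both libraries, against 36.5% of all genes, at a median of -0.33. PSMG1, which pairs alpha subunits into a ring, had 1196, 1136 and 1036 counts and stood at -0.55 (SE 0.36). PAAF1 stood at -0.53 (SE 0.40) and PSMD5, a chaperone of the ATPase ring, at -0.41 (SE 0.35). The 4 genes of the proteasome's deubiquitinases and ligases had a median of -0.44 and were each below scramble in both (36.5% of all genes). USP14 had 2911, 2804 and 2554 counts (-0.53, SE 0.34), followed by UCHL5 (-0.47, SE 0.37, with -0.67 and -0.31 in libraries 1 and 2) and UBE3A (-0.41, SE 0.34). These values rest on TMM scaling: with library size alone PSMG1 stood at -0.12, PAAF1 and USP14 at -0.10 and UCHL5 at -0.05, and PSMD5 and UBE3A turned to 0.02.

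Of the 3 inducible subunits tested, 2 were above scramble in both libraries, against 37.9% of all genes. The other, PSMB8, went opposite ways, and 0 of the 3 passed the test. These replace the catalytic beta subunits in the immunoproteasome, which cells form under interferon. PSMB9 had 38, 103 and 160 counts, which is 1.43 CPM for scramble and 3.74 ± 1.22 CPM for shKLF5 (SD, n = 2), and stood at 1.38 (SE 0.62, interval -0.04 to 2.81). PSMB10 had 196, 315 and 368 counts and stood at 0.39 (SE 0.46), with 0.25 and 0.52 in libraries 1 and 2. PSMB8 was nearly silent, with 8, 7 and 20 counts (0.35, SE 0.91, with -0.50 in library 1 and 0.81 in library 2). In TPM, PSMB9 stood at 1.81, 5.11 and 7.73, against 95.7, 113 and 89.2 for its constitutive counterpart PSMB6. The edgeR adjusted p was 0.554 for PSMB9, 0.801 for PSMB10 and 0.922 for PSMB8.

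Of 6 genes of activators, inhibitor and adaptor, 4 were below scramble in both libraries, against 36.5% of all genes. Above in both was 1, against 37.9%, and 1 went opposite ways. ECPAS, an adaptor of the 26S particle, had 4171, 3626 and 3237 counts and stood at -0.69 (SE 0.34). Of the PA28 subunits, PSME2 had 825, 1201 and 1547 counts (0.33, SE 0.39), with 0.11 in library 1 and 0.52 in library 2, so that its value rests mainly on library 2. PSME1 had 1016, 1206 and 1151 counts (-0.20, SE 0.37) and turned to 0.23 with library size alone.

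The regulator NFE2L1 had 19338, 18821 and 17550 counts, which is 727 CPM for scramble and 515 ± 14.5 CPM for shKLF5 (SD, n = 2), and stood at -0.50 (SE 0.35, interval -1.31 to 0.31). That value was 0.00 with the loess correction, -0.07 with library size alone and -0.02 with limma on log2(TPM + 1). The next list held 8 genes, NFE2L1 itself and the factors that extract and process it. NFE2L1, VCP and NGLY1 were below scramble in both libraries (36.5% of all genes), 1 was above in both (37.9%) and 4 went opposite ways. VCP, the ATPase that pulls proteins from the endoplasmic reticulum, had 11713, 10364 and 7917 counts (-0.77, SE 0.35), while the ligase gene SYVN1 had 3083, 4844 and 6132 (0.43, SE 0.37, with 0.22 and 0.60 in libraries 1 and 2). NFE2L2, or NRF2, its regulator KEAP1 and its classic targets were all 9 below scramble in both (36.5% of all genes), with a median of -0.88. KEAP1, which is not such a target, stood at -0.55. SRXN1 had 9065, 4278 and 6363 counts and stood at -1.17 (SE 0.38), with -1.51 in library 1 and -0.90 in library 2. GCLM, with 3286, 1181 and 2375 counts, was likewise lower in library 1, at -1.91 against -0.86 (joint value -1.29, SE 0.46). GCLC had 20544, 15494 and 11226 counts (-1.03, SE 0.36) and was lower in library 2, at -1.26 against -0.84.

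Of 5 ubiquitin and activating enzyme genes 3 were below scramble in both libraries (36.5% of all genes) and 2 went opposite ways. UBB, a polyubiquitin gene, had 6558, 8353 and 6040 counts (-0.28, SE 0.36), with -0.08 and -0.51 in libraries 1 and 2. UBA1, the main activating enzyme, had 8896, 11363 and 9438 (-0.19, SE 0.35, with -0.08 and -0.30), and RPS27A, which encodes ubiquitin fused to a ribosomal protein, had 4872, 5202 and 6246 (-0.17, SE 0.35, with -0.34 and -0.03). All 3 turned positive with the loess correction, with library size alone and with limma on log2(TPM + 1). Among 6 receptors that carry cargo, SQSTM1, which encodes the autophagy receptor p62, was alone above scramble in both libraries (37.9% of all genes). It had 7401, 11168 and 26583 counts, with log2 fold changes of 0.16 and 1.46 in libraries 1 and 2, so that its joint value of 0.95 (SE 0.55, edgeR adjusted p = 0.623) rests mainly on library 2. UBQLN1 and UBQLN2, which ferry ubiquitinated proteins to the cap, were below scramble in both after TMM scaling but turned to 0.02 and 0.12 with library size alone. UBQLN1 had 5613, 6855 and 4396 counts (-0.41, SE 0.38), with -0.14 in library 1 and -0.74 in library 2. UBQLN2 had 1417, 1538 and 1491 counts (-0.31, SE 0.36), with -0.31 in each.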

How the data were processed

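RNA-seq of 3 TE5 libraries was used. Each library has 1 deposited table, laid out as kallisto writes abundances; kallisto, DESeq2 and hg19 are named in the submitters' processing notes. The deposited estimated counts are per transcript and not normalised, and the deposited TPM values are scaled to a fixed total per library, per the file headers. Deposited lengths and effective lengths (another unit, bases) were used for matching and length scaling, per the file headers. Neither the transcript index nor the use of strand is given in the sources used here.

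Of 196354 transcripts 181857 (92.6%) matched GENCODE 29, holding 96.6% to 96.9% of counts, and 288 belonged to the members. Counts were summed per gene and rounded. The fit used edgeR 4.0.16 in R 4.3.3 (filterByExpr, TMM, quasi-likelihood test, legacy = FALSE). Adjustment was by Benjamini-Hochberg across the 20629 genes that passed the filter, with calls at 0.05. Scramble had a TMM factor of 0.82, shKLF5 library 1 of 1.11 and library 2 of 1.10. The residual degrees of freedom numbered 1 and the prior ones 6.88, at a common biological coefficient of variation of 32.9%. Scramble, as a lone library, takes its spread from the shKLF5 pair. CPM are TMM-normalised. Single-library fold changes add a prior count of 2 and have no test. Reads carry no molecular identifiers. The fit was run on simulated counts to check the sign and size of changes. Those counts had less spread than the data and larger changes than the subunits, so the run does not bear on the calls here.

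The members and lists were chosen with earlier results of these data known. Full statistics were given by rule for KLF5, for the pair with the smallest p and the member nearest 0 in each name class, for PSMB5, PSMB6, PSMB7, PSMD14 and members on both sides of scramble, and for up to 3 genes per surrounding list. A gene of the ubiquitin list is not reported here. Genes outside that rule were chosen after their values were seen. Lists were other 19S subunits, inducible subunits, assembly chaperones, activators and inhibitor, NFE2L1 processing, deubiquitinases and ligases, and ubiquitin with its activating enzymes. Further lists were shuttle receptors, NRF2 with KEAP1 and targets, and markers of squamous epithelium, fibroblasts, leukocytes and endothelium. Alternatives were other scalings and filters, length-scaled TPM, coding transcripts, edgeR's legacy fit, DESeq2 1.42.0 and limma 3.58.1 on log2(TPM + 1), and each shKLF5 library left out.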

Additional observations from a re-analysis of the deposited data

How the results depend on the processing

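No paired analysis was possible because there was 1 scramble library for 2 shKLF5 libraries. The count of 28 subunits below scramble in both libraries became 12 with library size alone and 7 with limma on log2(TPM + 1), and their median went from -0.45 to -0.02 and 0.00. In the order PSMA, PSMB, PSMC and PSMD, the class medians were -0.29, 0.04, 0.06 and -0.01 with library size alone and -0.30, 0.02, 0.17 and 0.02 with limma. The loess correction gave -0.19 for all and -0.18, -0.16 and -0.19 for PSMB, PSMC and PSMD; a mean of at least 5 CPM gave -0.27, and -0.21, -0.19 and -0.26. The PSMC median of -0.37 was the same to 2 decimals, -0.37, with median-ratio factors and DESeq2; it was -0.34 without mitochondrial genes, -0.41 with no filter, -0.29 with length-scaled TPM and -0.40 with coding transcripts, where PSMD was -0.57. Genes called went from 0 to 2 without mitochondrial genes, 21 with the legacy fit and 116 with DESeq2; KLF5 was called by these last 2 (-2.96 and -2.97). Centring on the median gene of each library, chosen after seeing the data, left 28 subunits below it in both.

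Without 1 shKLF5 library the fit has no residual degrees of freedom, so values carry no test. PSMC5 was then -0.22 or 0.17, PSMC4 -0.13 or 0.28 and PSMB8 -0.50 or 0.81. With library size alone the sign turned for PSMA1 (0.03), PSMB2 (0.07), PSMB6 (0.06), PSMB7 (0.06), PSMC5 (0.42), PSMD8 (0.38), ADRM1 (0.10), SEM1 (0.19), PSMD5 (0.02), PSME1 (0.23), UBE3A (0.02), UBB (0.15), UBA1 (0.24), RPS27A (0.25), UBQLN1 (0.02) and UBQLN2 (0.12). With limma it turned for the same genes but UBE3A: PSMA1 (0.15), PSMB2 (0.06), PSMB6 (0.07), PSMB7 (0.05), PSMC5 (0.42), PSMD8 (0.43), ADRM1 (0.08), SEM1 (0.20), PSMD5 (0.10), PSME1 (0.25), UBB (0.18), UBA1 (0.27), RPS27A (0.27), UBQLN1 (0.01) and UBQLN2 (0.11). The loess correction turned PSMC5 (0.20), PSMD8 (0.19), PSMB8 (-0.30), UBB (0.06), UBA1 (0.21) and RPS27A (0.14). A mean of at least 5 CPM turned PSMC5 (0.17), PSMD8 (0.13) and RPS27A (0.01). PSMC5 was 0.02 without mitochondrial genes, and PSMC4 -0.02 with coding transcripts. The cause was not tested. Each subunit had at least 951 counts in every library, and whether more libraries would change the calls was not tested.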
